A study of Homo sapiens with 6 samples.

Results

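The mRNA of 10 chemokine genes was examined in T24 cells, a human line established from bladder cancer. The genes were chosen by name from the ligands that tumor cells use to attract leukocytes: CXCL1, CXCL2, CXCL3, CXCL5, CXCL6, CXCL8, CCL2, CCL20, CXCL16 and CX3CL1. Earlier results of these data were known when the choice was made. All 10 are among the 23152 genes counted, and 8 of them are among the 14467 genes that passed the filter on low counts and were tested. CCL2 and CX3CL1 were too low to test, while each of the 8 had at least 165 counts in every sample.

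Of the 6 samples, 3 were T24 cells with the empty vector (vector) and 3 were T24 cells overexpressing RNF112 (oeRNF112), a ubiquitin ligase. All were grown in RPMI medium with fetal bovine serum and antibiotics, and a transfection with a Lipofectamine reagent is given for all of them. The treatment text names siRNA while the sample labels name a vector and an overexpression, and the time after transfection is not given in the sources used here. The samples come from a single cell line in monoculture, and nothing states that the replicates were separate cultures, so the p-values measure the spread between these samples, which may be technical.

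Chemokines are small secreted proteins that bind G protein-coupled receptors on leukocytes and direct their migration. CXC chemokines with the amino acids ELR before the first cysteines bind CXCR2, and some of them CXCR1, and attract neutrophils. In epithelial and tumor cells their genes are switched on by IL-1 and TNF through NF-kB, and their mRNAs are short-lived.

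Across the 8 genes tested, 7 were higher and 1 was lower in oeRNF112 than in vector, at an adjusted p under 0.05 in edgeR's quasi-likelihood test with Benjamini-Hochberg adjustment over all genes tested. Among all genes tested, 18.1% were called in either direction, 9.97% higher and 8.14% lower. CCL20 and CXCL8 had the largest fold changes of the 8, 3.85-fold and 2.66-fold, and CXCL2, CXCL3, CXCL5, CXCL16 and CXCL1 rose by smaller factors, from 1.95-fold down to 1.35-fold. CXCL6 was the exception, with a level in oeRNF112 that was 56.0% of that in vector. The median over these 8 genes was a log2 fold change of 0.75, against 0.00267 over all genes tested. In all 8 genes the CPM values of the groups did not overlap, 7 with oeRNF112 above and 1 below, as in 36.8% of all genes tested (18.9% above and 17.9% below). As the genes were chosen with earlier results of these data known, these shares and medians do not test the list.

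The sequences before the start sites are shown here because 6 of these genes are neighbors on chromosome 4 and because CXCL6, the gene that fell, can be compared with CXCL5, its closest relative by sequence. Each line holds the 120 bases before the start site in the RefSeq table (GRCh38.p14), written 5′ to 3′ on the strand of the gene. Capitals mark matches to an NF-kB sequence, either the general consensus or the exact letters GGAATTTCC. The RefSeq table of promoters matched 7 of the 10 genes. CCL2, CXCL16 and CX3CL1 were not among them.
CXCL1, chr4:73869273-73869392, plus strand: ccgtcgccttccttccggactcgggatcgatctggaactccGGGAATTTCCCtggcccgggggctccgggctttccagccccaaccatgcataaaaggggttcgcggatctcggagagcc
CXCL2, chr4:74099196-74099315, minus strand: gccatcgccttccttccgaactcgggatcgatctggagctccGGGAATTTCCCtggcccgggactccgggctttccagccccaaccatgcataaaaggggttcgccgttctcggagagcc
CXCL3, chr4:74038690-74038809, minus strand: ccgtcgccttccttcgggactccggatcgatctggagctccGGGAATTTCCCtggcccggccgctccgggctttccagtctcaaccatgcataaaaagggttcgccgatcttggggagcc
CXCL5, chr4:73998678-73998797, minus strand: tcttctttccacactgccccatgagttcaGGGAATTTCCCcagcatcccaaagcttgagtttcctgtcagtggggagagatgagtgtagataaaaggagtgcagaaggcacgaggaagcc
CXCL6, chr4:73836558-73836677, plus strand: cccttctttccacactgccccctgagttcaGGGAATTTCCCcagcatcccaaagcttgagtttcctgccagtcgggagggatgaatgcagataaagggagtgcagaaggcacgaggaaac
CXCL8, chr4:73740449-73740568, plus strand: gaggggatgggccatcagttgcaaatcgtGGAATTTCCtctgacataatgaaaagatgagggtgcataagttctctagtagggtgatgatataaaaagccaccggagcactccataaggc
CCL20, chr2:227813722-227813841, plus strand: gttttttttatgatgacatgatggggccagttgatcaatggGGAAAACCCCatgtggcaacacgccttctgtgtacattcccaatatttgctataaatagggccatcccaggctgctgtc

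The exact letters GGAATTTCC were found on either strand, within 250 bases before the start, in 6 of the 7 genes and in 0.413% of 35116 promoters of the same length. The windows of CXCL1, CXCL2 and CXCL3 resemble each other (identities below), as do those of CXCL5 and CXCL6, so these matches are not separate cases. The share is given as a description, and no enrichment was tested. In CXCL1, CXCL2, CXCL3, CXCL5 and CXCL6 this run lies inside a match to the general NF-kB consensus, and in CXCL8 it does not. CCL20 held a consensus match without the exact letters, and 9.96% of all promoters held a consensus match. The exact run began 78 bases before the start in CXCL1 and CXCL3 and 77 in CXCL2. It began 90 bases before the start in CXCL5, 89 in CXCL6 and 91 in CXCL8. CXCL6, which fell, carries the same run of letters, at nearly the same distance from its RefSeq start, as CXCL5, which rose. Whether the run had a part in either change was not tested.

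An AP-1 sequence, TGANTCA, lay between 137 and 131 bases before the start of CXCL8 and in none of the other 6 windows, and 6.57% of all promoters held one. The E-box CACGTG, a sequence that MYC binds, was in none of the 7 windows and in 6.34% of all promoters. Other forms of the E-box, such as the looser CANNTG, were not searched. These are matches of letters within 1 window, and no binding was measured here. Aligned over the same 250 bases, CXCL5 and CXCL6 were 85.6% identical, CXCL1 and CXCL3 84.0%, CXCL2 and CXCL3 78.0% and CXCL1 and CXCL2 75.6%. The remaining pairs were between 44.0% and 56.4% identical. The first start site in GENCODE 29 is the same base as in RefSeq for CXCL1. It lies 63 bases further upstream for CXCL8, 98 for CXCL2, 102 for CXCL5, 118 for CXCL3 and 181 for CXCL6, and 8103 for CCL20. In CXCL2, CXCL3, CXCL5 and CXCL6 the exact run thus lies after the first GENCODE start. Its distance from that start is not alike in CXCL5 and CXCL6.

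**Figure D1:**
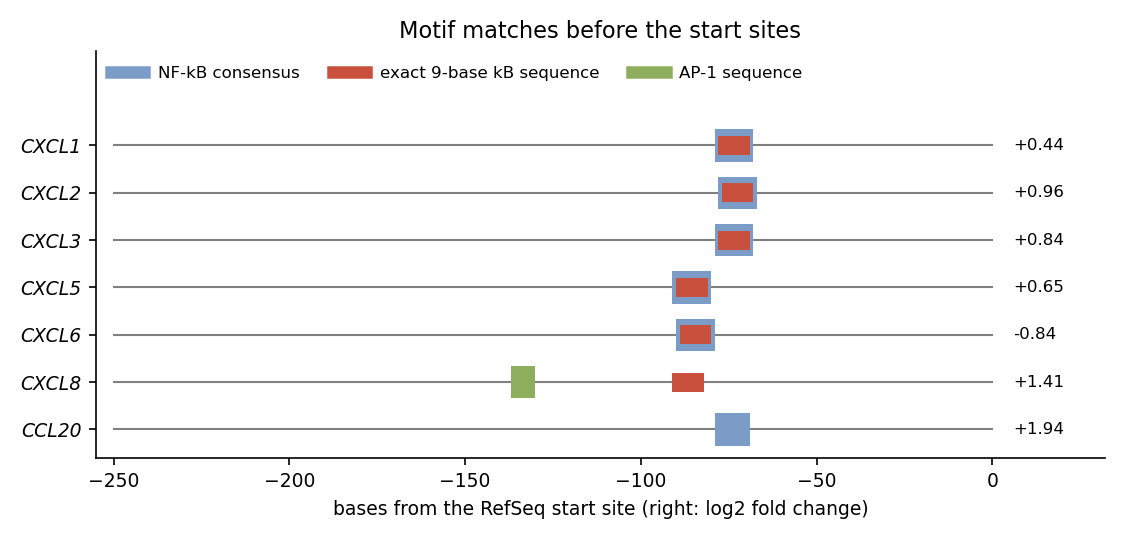
Motif matches in the 250 bases before the RefSeq start site of 7 chemokine genes. The horizontal axis gives bases from the start site, wide blue boxes are matches to the NF-kB consensus, red boxes the exact run of 9 bases and the green box the AP-1 sequence. The number on the right is the log2 fold change between oeRNF112 and vector. Counted from the RefSeq start, CXCL6, at -0.84, has nearly the same arrangement as CXCL5, at 0.65. Counted from the first GENCODE start the distances differ.

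RNF112 itself was counted 27, 19 and 24 times with the vector and 29753, 36963 and 31712 times with oeRNF112. The groups were thus far apart in the targeted gene, whose reads could come in part from the construct. Total counts were between 40029547 and 41259569 reads per sample, so 3 counts, the most that a count of 0 allows, corresponded to between 0.0727 and 0.0749 CPM (counts scaled to a common library size), here by the library total. The limit covers counting error only. All CPM values of genes and sums are scaled by the library total times its TMM factor, edgeR's correction for the makeup of a library. Across all genes, 1442 were called higher and 1178 lower. With library totals in place of edgeR's TMM factors the split was 2020 higher and 659 lower (18.5% of genes called), and the 8 chemokine genes kept their directions and calls.

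CXCL8, a potent attractant of neutrophils, was among the most abundant mRNAs of these cells. Its level per gene length, as deposited in RPKM (reads scaled by gene length and library total), was 242, 202 and 236 with the vector and 523, 699 and 708 with oeRNF112. The groups did not overlap, and the lowest oeRNF112 sample had 2.00 times the CPM of the highest vector sample. The mean RPKM was 227 ± 21.3 (SD, n = 3) in vector and 643 ± 104 (SD, n = 3) in oeRNF112. Ranked by mean RPKM among the 23152 genes, CXCL8 moved from place 225 to place 91. Its counts gave a log2 fold change of 1.41 (its standard error, SE, was 0.137, adjusted p = 0.000283 in edgeR's test), a 2.66-fold rise with a 95% interval from 2.15 to 3.29.

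CXCL1, CXCL2 and CXCL3 are a trio of closely related genes, once known together as the GRO proteins, that signal through CXCR2. CXCL1 was as abundant as CXCL8 in vector, with RPKM values of 248, 219 and 273, and had 335, 363 and 371 in oeRNF112. The groups did not overlap, but the rise was the smallest of the 7, with a log2 fold change of 0.44 (SE 0.105, adjusted p = 0.0193 in edgeR's test). This call was lost without vector replicate 1 (adjusted p = 0.0701), without oeRNF112 replicate 1 (adjusted p = 0.0505) and without oeRNF112 replicate 3 (adjusted p = 0.0558), all in the same edgeR test. The log2 fold change without these samples was 0.46, 0.48 and 0.42.

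CXCL2 stood at 31.2, 28.4 and 35.4 RPKM in vector and at 54.9, 65.5 and 77.2 RPKM in oeRNF112, 2 groups that were well apart. Its log2 fold change was 0.96 (SE 0.136, adjusted p = 0.00172 in edgeR's test), a 1.95-fold rise. CXCL3, the least abundant of the trio, had RPKM values of 9.78, 7.22 and 8.63 in vector and of 13.2, 18.4 and 17.5 in oeRNF112. Each oeRNF112 sample exceeded each vector sample, and oeRNF112 replicate 1 was the lowest of its group. The same sample was the lowest of its group for CXCL1, CXCL2, CXCL5, CXCL8, CCL20 and also CXCL6, the gene that fell. The log2 fold change of CXCL3 was 0.84 (SE 0.164, adjusted p = 0.0077 in edgeR's test).

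Reads of these 3 genes could in part be exchanged by the counting. Of the stretches of 50 bases in the longest GENCODE transcript, 5.73% in CXCL1, 9.24% in CXCL2 and 3.02% in CXCL3 also occur in the transcript of another of the 3. Stretches of 100 bases were not shared by any of the 8 genes tested, and CXCL6, CXCL8 and CCL20 shared none of 50 bases either.

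CXCL5 and CXCL6 are another pair of close relatives, encoding the neutrophil attractants ENA-78 and GCP-2, and they moved in opposite directions. CXCL5 had 1200, 1119 and 1100 counts in vector and 1619, 1898 and 2165 counts in oeRNF112. Its vector samples were nearly level, and its log2 fold change was 0.65 (SE 0.112, adjusted p = 0.00421 in edgeR's test). CXCL6 had 339, 333 and 317 counts in vector and 182, 214 and 189 counts in oeRNF112. All 3 oeRNF112 samples were below all 3 vector samples, and the spread within each group was small beside the gap. CXCL6 fell by 0.84 in log2 units (SE 0.130, adjusted p = 0.00263 in edgeR's test), with a 95% interval of the log2 fold change from -1.13 to -0.55. In RPKM, CXCL5 went from 11.5 ± 0.392 to 19.3 ± 2.71 and CXCL6 from 5.27 ± 0.135 to 3.15 ± 0.253 (SD, n = 3 each).

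The log2 ratio of CXCL6 to CXCL5 counts within a sample, which does not depend on how samples are scaled, was -1.82, -1.75 and -1.79 in vector and -3.15, -3.15 and -3.51 in oeRNF112. The difference of -1.48 between the groups had an exact two-sided permutation p of 0.1, the smallest that 3 samples against 3 can give, and an adjusted p of 0.175 over the 7 pairs of genes compared. So this design could not have brought any ratio past the threshold.

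CCL20, which attracts dendritic cells and lymphocytes through CCR6, had the largest rise of the 8. It had 247, 181 and 165 counts in vector and 696, 797 and 920 counts in oeRNF112. The lowest oeRNF112 sample had 2.69 times the CPM of the highest vector sample. The log2 fold change was 1.94 (SE 0.166, adjusted p = 0.000158 in edgeR's test), a 3.85-fold rise with a 95% interval from 2.98 to 4.97. By the size of the rise CCL20 was 138th and CXCL8 302nd of the 14467 genes tested. CCL20 remained far less abundant, at 5.82 ± 1.20 RPKM in vector and 23.9 ± 3.25 RPKM in oeRNF112 (SD, n = 3 each).

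CCL2, the main attractant of monocytes, was nearly absent from T24 cells, with 2, 1 and 0 counts in vector and 2, 2 and 1 counts in oeRNF112. At most 2 counts were thus seen in any sample, and no fold change is given. A difference between the groups was not detectable at this depth.

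CXCL16 and CX3CL1 differ from the others in being made as membrane proteins, whose chemokine domain is released by the proteases ADAM10 and ADAM17. CXCL16, a ligand of CXCR6, had 165, 178 and 182 counts in vector and 297, 261 and 291 counts in oeRNF112. The groups were apart, and the log2 fold change was 0.61 (SE 0.133, adjusted p = 0.0124 in edgeR's test). The call was lost without vector replicate 1 (log2 fold change 0.58, adjusted p = 0.0588) and without oeRNF112 replicate 1 (0.57, adjusted p = 0.0599) in the same edgeR test. CX3CL1, the ligand of CX3CR1, had 10, 3 and 3 counts in vector and 7, 5 and 9 counts in oeRNF112, ranges that overlap and are too low to test. ADAM10 had a log2 fold change of -0.09 (adjusted p = 0.655 in edgeR's test) and ADAM17 of 0.18 (adjusted p = 0.221). DPP4, which trims chemokines, had 22, 23 and 25 counts in vector and 54, 43 and 36 in oeRNF112, groups that did not overlap. Its log2 fold change was 0.84 (adjusted p = 0.0688 in edgeR's test). None of these 3 proteases passed the test, beside 18.1% of all genes tested that did.

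**Figure D2:**
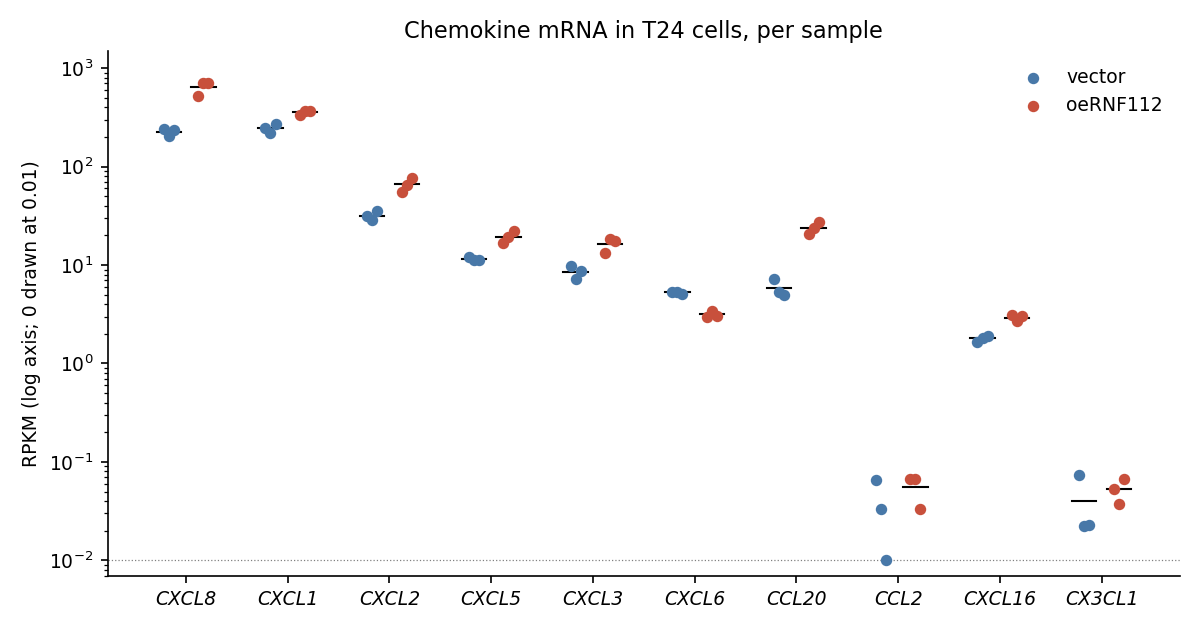
RPKM of the 10 chemokine genes in each sample, on a log axis. Each point is 1 sample, black bars are the means of 3 samples, and a value of 0 is drawn at 0.01. CXCL1 and CXCL8 lie at 202 RPKM or more in every sample, while CCL2 and CX3CL1 lie at 0.0738 or less.

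**Figure D3:**
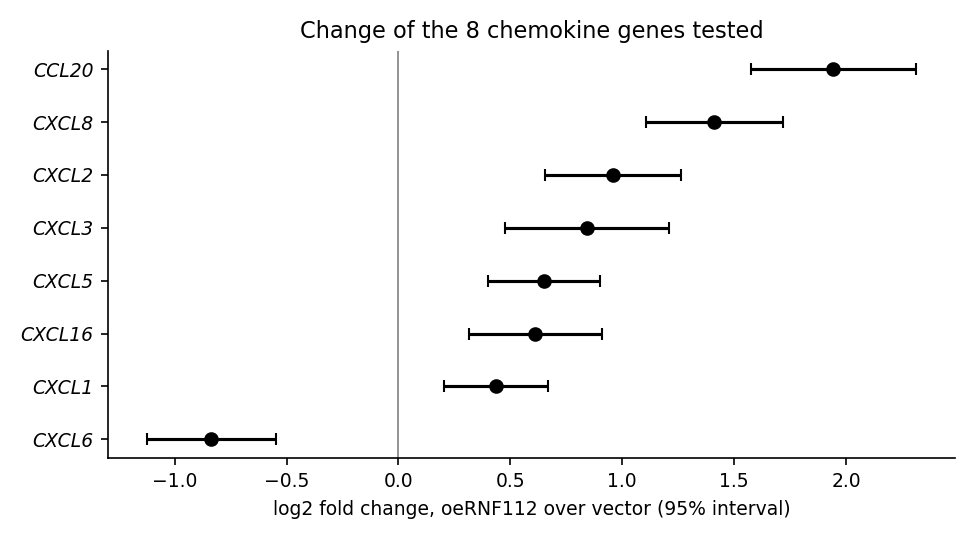
Log2 fold change of the 8 chemokine genes tested, oeRNF112 over vector, with 95% intervals from edgeR. The interval of CXCL6 lies wholly below 0 and those of the other 7 wholly above it, from CXCL1 at 0.44 to CCL20 at 1.94.

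The order of the levels in RPKM changed between the groups. In vector, CXCL1 and CXCL8 came first, with ranges of 219 to 273 and 202 to 242 that overlap. CXCL2 followed at 31.7 ± 3.56, CXCL5 at 11.5 ± 0.392 and CXCL3 at 8.54 ± 1.29 (SD, n = 3 each), each apart from the next. CCL20 (4.91 to 7.18) just missed CXCL3 (7.22 to 9.78) and overlapped CXCL6 (5.11 to 5.35). CXCL16 was below them at 1.67 to 1.88, and CX3CL1 and CCL2 were last and overlapped. In oeRNF112, CXCL8 stood alone at the top, followed by CXCL1 at 356 ± 18.5 and CXCL2 at 65.9 ± 11.1 (SD, n = 3 each). CCL20 (20.8 to 27.3) now overlapped CXCL5 (16.6 to 22.0), which in turn overlapped CXCL3 (13.2 to 18.4). CXCL6 (2.96 to 3.43) and CXCL16 (2.68 to 3.09) shared the last place of the genes tested.

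As a sum, the mRNA of the 6 ELR chemokines was more abundant in oeRNF112. The summed CPM was 908, 758 and 930 in vector and 1536, 1982 and 1960 in oeRNF112. The groups did not overlap, and the ratio of the means was 2.11 (exact two-sided permutation p = 0.1, the smallest this design allows). Without CXCL8 the sum went from 383 to 543 CPM, a ratio of 1.42, and without CXCL8 and CXCL1 from 83.4 to 138 CPM, a ratio of 1.66.

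Within this sum CXCL8 gained and CXCL1 lost its share. CXCL8 made up 44.1%, 42.7% and 41.4% of the summed RPKM in vector and 55.3%, 59.9% and 59.1% in oeRNF112. CXCL1 made up 45.2%, 46.3% and 48.0% in vector and 35.5%, 31.0% and 30.9% in oeRNF112. The shares of these 2 genes did not overlap between the groups, so the mixture changed as well as its amount. CXCL2 kept its share, with 5.97% ± 0.261 in vector and 5.95% ± 0.434 in oeRNF112 (SD, n = 3 each), while CXCL6 went from 0.976%, 1.13% and 0.899% to 0.313%, 0.294% and 0.254%.

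Ratios within a sample come from the same counts and restate the unequal fold changes, so they are no separate evidence. The log2 ratio of CXCL8 to CXCL1 was higher by 0.96 in oeRNF112, that of CXCL2 to CXCL1 by 0.51 and that of CCL20 to CXCL8 by 0.55. In each of these 3 pairs the groups did not overlap (exact two-sided permutation p = 0.1, adjusted p = 0.175 over 7 pairs). The ratio of CXCL3 to CXCL1 was higher by 0.40 with overlapping groups (exact permutation p = 0.2, adjusted p = 0.28). The ratios of CCL2 to CXCL8 and of CX3CL1 to CXCL16 rest on counts of at most 10 and are not interpreted.

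**Figure D4:**
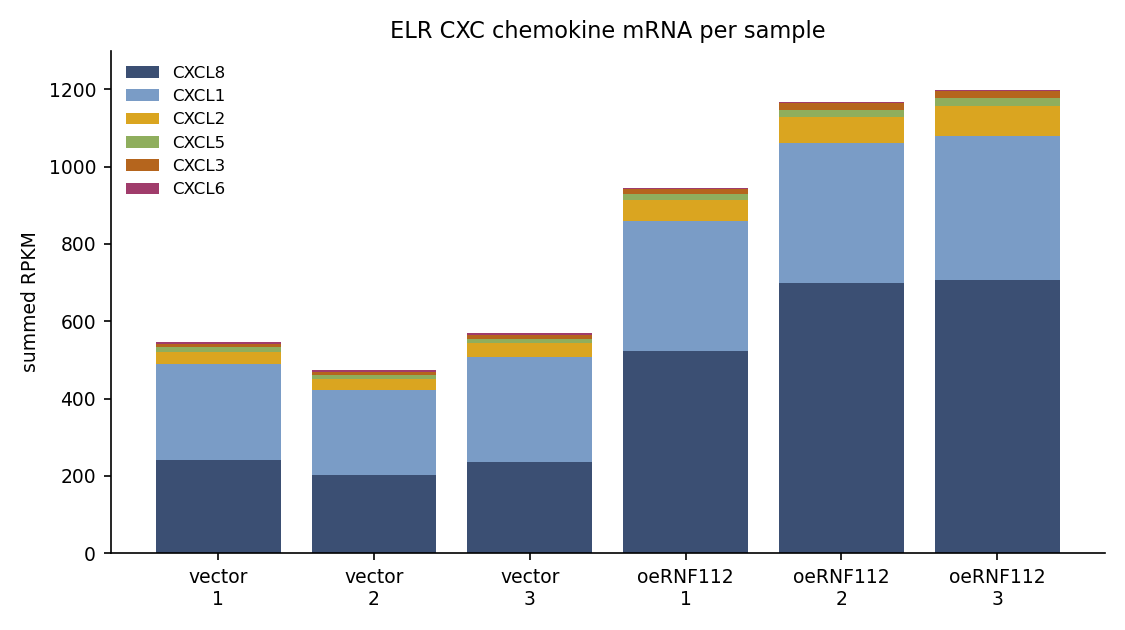
Summed RPKM of the 6 ELR chemokines in each sample, as stacked bars from 0. Each color is 1 gene, and the sums are 548, 474 and 569 for vector and 946, 1168 and 1198 for oeRNF112, with CXCL8 as the largest part in each oeRNF112 sample.

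The 6 ELR genes lie together on chromosome 4. In GRCh38.p14, from the start of CXCL8 (chr4:73740569-73743716) to the end of CXCL2 (chr4:74097040-74099195) the count table has 9 genes over 358.6 kb. In between lie CXCL6 (chr4:73836678-73838760), CXCL1 (chr4:73869393-73871308), CXCL5 (chr4:73995642-73998677) and CXCL3 (chr4:74036589-74038689). The gene that fell is thus the nearest neighbor, among these 9, of both CXCL8 and CXCL1, which rose. PF4 and PPBP, the platelet chemokines in the middle of the cluster, had at most 3 counts in any sample.

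LOC105377275, a long noncoding RNA gene between CXCL3 and CXCL2, had 25, 19 and 6 counts in vector and 38, 49 and 73 in oeRNF112. Its log2 fold change was 1.59 (SE 0.441, adjusted p = 0.0334 in edgeR's test), a call that was lost in 5 of 13 other settings, among them the omission of vector replicate 1, vector replicate 3, oeRNF112 replicate 1 or oeRNF112 replicate 3. The nearest tested genes outside the cluster did not pass the test. RASSF6 had a log2 fold change of 0.88 (adjusted p = 0.186 in edgeR's test) and MTHFD2L of -0.18 (adjusted p = 0.477). CCL20 lies apart from the cluster on chromosome 2 (chr2:227813842-227817556), CCL2 (chr17:34255285-34257203) and CXCL16 (chr17:4733533-4739928) on chromosome 17, and CX3CL1 (chr16:57372490-57385044) on chromosome 16.

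Other chemokine ligands were all but silent. Of 38 further ligands, 20 are in the count table and 1 passed the filter, CCL5, a T cell attractant, with a log2 fold change of 0.05 (adjusted p = 0.952 in edgeR's test). The other 19 had at most 10 counts in any sample. All 20 summed to between 0.650 and 1.47 CPM per sample, against 767 to 2008 CPM for the 10 genes described above.

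Receptors for these ligands had few counts in the same cells. Of 23 chemokine receptors 15 are in the table and 3 were tested. None of the 3 passed the test, beside 18.1% of all genes tested that did. CXCR2, the receptor of the ELR chemokines, had 0 counts in each vector sample and 0, 1 and 1 counts with oeRNF112, and so did CX3CR1. CXCR6, the receptor of CXCL16, had 1 count in all 6 samples together. The other 8 receptors on the list, CXCR1, CCR2 and CCR6 among them, were not analysed here. The receptors that were tested had log2 fold changes of -0.67 for CXCR4 (adjusted p = 0.196 in edgeR's test), 0.37 for CCR10 (adjusted p = 0.196) and 0.57 for CCRL2 (adjusted p = 0.102). The groups overlapped for CXCR4. They did not for CCR10 and CCRL2, with oeRNF112 above, as in 18.9% of all genes tested. CCR4, which did not pass the filter on low counts, had 0, 1 and 2 counts in vector and 22, 12 and 7 in oeRNF112.

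Among 20 genes for the cytokines that induce these chemokines and their signal transducers, 5 were higher and 1 was lower, and the median over the 20 was 0.11 in log2 units. Over all genes tested, 9.97% were called higher and 8.14% lower. IL1B, a secreted form of IL-1, went from 295 ± 17.4 to 623 ± 54.7 RPKM (SD, n = 3 each), with a log2 fold change of 0.98 (adjusted p = 0.000344 in edgeR's test). IL1A, the other form, had a log2 fold change of 1.18 (adjusted p = 0.000402), and IL1R1, the receptor of both, of 1.32 (adjusted p = 0.00138). TNFRSF1B, a receptor of TNF, had 11, 6 and 5 counts in vector and 55, 44 and 82 in oeRNF112 (log2 fold change 2.94, adjusted p = 0.00139). These 4 calls were kept in every other setting that tested the gene. CHUK, a kinase subunit that activates NF-kB, rose by 0.35 on the log2 scale (adjusted p = 0.0498) and IL17RC, a subunit of the IL-17 receptor, fell by 0.43 (adjusted p = 0.0154), both in edgeR's test. CHUK was not called in 6 of the 14 other settings and IL17RC not in 4 of them, the omission of vector replicate 1, oeRNF112 replicate 1 or oeRNF112 replicate 3 among them in both cases, and that of vector replicate 3 for CHUK. TNF was not past the threshold, with a log2 fold change of 0.32 (adjusted p = 0.143).

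Of 10 NF-kB subunits and inhibitors 3 were called higher and none lower, beside 9.97% and 8.14% of all genes tested, with a median log2 fold change of 0.18. TNFAIP3, an inhibitor of NF-kB signaling that NF-kB itself induces, had a log2 fold change of 1.16 (adjusted p = 0.000283 in edgeR's test). NFKBIZ, a cofactor that NF-kB uses at a subset of its targets, had 0.68 (adjusted p = 0.00654), and both calls were kept in all 14 other settings. NFKB2, which encodes a subunit, had 0.33 (adjusted p = 0.0306) and was not called in 6 of the 14, 5 of which each left out a sample other than vector replicate 3. The other 7 genes of the list were not called. RELA, the main activating subunit, had a log2 fold change of 0.12 (adjusted p = 0.335) in the same test. NFKBIA had 0.03 (adjusted p = 0.86), NFKBIE 0.23 (adjusted p = 0.242) and NFKB1 -0.20 (adjusted p = 0.13).

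Of 7 proteins that bind chemokine mRNAs and set their decay, the genes of 2 were called higher and of 1 lower, beside 18.1% of all genes tested called in either direction, with a median log2 fold change of -0.05. ZFP36, which promotes decay, had a log2 fold change of 0.50 (adjusted p = 0.0265 in edgeR's test). ZC3H12A, the nuclease Regnase-1, had 0.40 (adjusted p = 0.0133), and ZFP36L2, a relative of ZFP36, had -0.49 (adjusted p = 0.00993). The call of ZFP36 was lost without vector replicate 1, oeRNF112 replicate 1 or oeRNF112 replicate 3, and that of ZC3H12A without vector replicate 1 or oeRNF112 replicate 3. Whether the cytokine, NF-kB or decay genes had a part in the chemokine changes was not tested.

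Across the 6 samples, the tested genes whose log2 CPM followed CXCL8 most closely were ANKFN1, LOC105369957, AAGAB, IL1A and HSPBAP1, each with a Pearson correlation of 0.997 or 0.998 (n = 6 samples). The samples form 2 groups, so that any gene that differs between them is correlated with CXCL8, and 13.7% of the other tested genes had a correlation beyond 0.9 in size. Among the chemokines the correlation with CXCL8 was 0.983 for CXCL2, 0.981 for CXCL5, 0.980 for CCL20, 0.973 for CXCL3, 0.947 for CXCL1, 0.916 for CXCL16 and -0.929 for CXCL6.

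Markers were examined because leukocytes also make chemokines. In bulk RNA, fewer cells of a type and less RNA per cell cannot be told apart. The epithelial origin of T24 was visible in KRT7, KRT8, KRT18 and KRT19, while CDH1 had at most 1 count, UPK3A at most 1 and UPK2 at most 7. The 7 epithelial markers summed to between 3529 and 4547 CPM in vector and between 2710 and 3252 CPM in oeRNF112, with KRT17 and EPCAM called higher and KRT7 and KRT18 called lower. The part of this shift in the chemokine changes was not tested. The sum of the 11 leukocyte markers was also apart between the groups, at 32.4 to 36.0 CPM in vector and 55.5 to 69.8 CPM in oeRNF112. Of the 11, 5 were tested, CD68 was called higher (log2 fold change 1.21, adjusted p = 0.000312 in edgeR's test) and LAPTM5 lower (-0.88, adjusted p = 0.0308). Among all genes tested, 9.97% were called higher and 8.14% lower. The calls of KRT7, KRT17, KRT18, EPCAM and LAPTM5 were lost without vector replicate 1, and the omission of any other sample except vector replicate 2 ended at least 1 of them.

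Most of the leukocyte sum was CD68, a lysosomal protein that other cells also make. Without it the sum was 11.0, 10.6 and 9.74 CPM in vector and 10.9, 5.50 and 5.79 CPM in oeRNF112. CD3E had 0 counts in 5 samples and 4 in the last, FCGR3B at most 1 count and CSF3R at most 3. LYZ had 4, 5 and 8 counts in vector and 97, 2 and 6 in oeRNF112, and the highest value was again in oeRNF112 replicate 1 for CSF1R (0, 4 and 1 in vector, 15, 1 and 3 in oeRNF112) and ITGAM (2, 2 and 3 in vector, 11, 3 and 7 in oeRNF112). Without that sample 8.59% of genes tested were called. CXCL8, CXCL2, CXCL3, CXCL5 and CCL20 were called higher and CXCL6 lower in this setting. CXCL1 (adjusted p = 0.0505 in edgeR's test) and CXCL16 (adjusted p = 0.0599) were not called. That sample was the lowest of its group for the genes called higher, so leaving it out raised their estimates. It was also the lowest for CXCL6, whose log2 fold change was -0.79 without it against -0.84. The part of leukocyte RNA in the chemokine changes was not tested. Of 6 urothelial markers 3 were tested and none was called, and their sum was 56.8 to 62.4 CPM in vector and 62.7 to 64.9 CPM in oeRNF112. Most of the urothelial sum was PPARG, at 52.0 to 58.7 CPM in vector and 58.5 to 60.5 CPM in oeRNF112. Of 7 stromal and endothelial markers 2 were tested and none was called, with sums of 9.51 to 12.3 CPM and 12.1 to 12.6 CPM. With 18.1% of all genes tested called in either direction, lists this small need not hold a called gene.

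**Figure D5:**
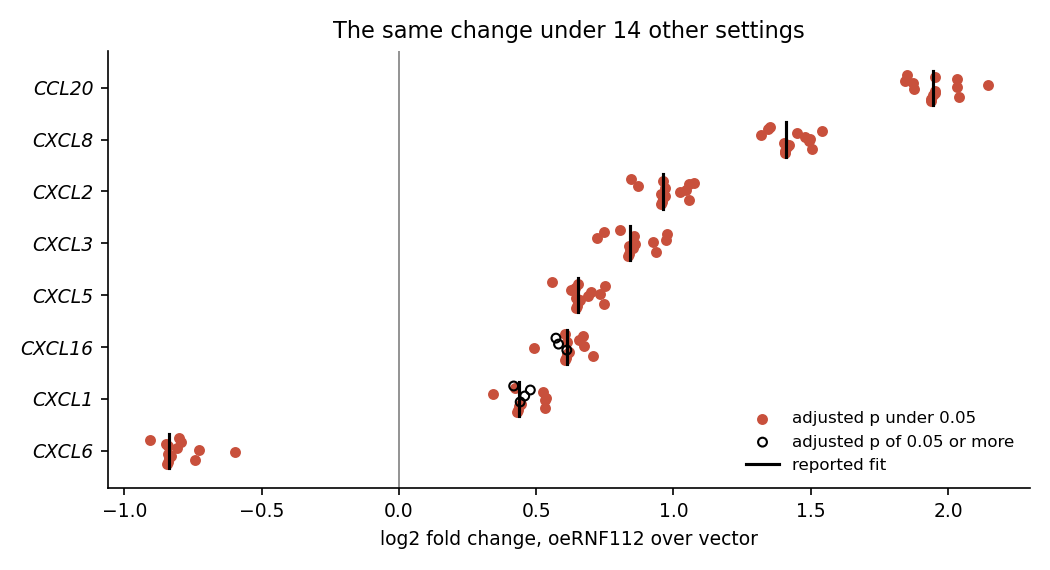
Log2 fold change of the 8 chemokine genes under 14 other settings. Each point is 1 setting, filled where the adjusted p was under 0.05 and open where it was not, and the vertical bar is the reported value. No point crosses 0, and open points occur for CXCL1 (4 of 14) and CXCL16 (3 of 14) but for none of the other 6 genes.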

How the data were processed

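RNA of 3 vector and 3 oeRNF112 samples of T24 cells was sequenced from libraries made with a stranded mRNA kit. The authors deposited raw counts for each gene and RPKM values, in which each count is scaled by the total of its sample and by gene length, as tested for 20637 of 20637 genes. The submitters' processing notes name Trimmomatic 0.36, featureCounts, Subread 1.5.1 and GRCh38. Their annotation, strand setting and handling of reads with several matches are not given in the sources used here.

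Genes were filtered and normalized with TMM factors and tested in edgeR 4.0.16 (R 4.3.3) with the quasi-likelihood test, Benjamini-Hochberg adjustment and a threshold of 0.05. The TMM factors ranged from 0.957 to 0.988 (vector) and from 1.01 to 1.05 (oeRNF112). Log2 ratios used counts with 0.5 added. Exact permutation tests were two-sided. The fits were tested on simulated data. Sequences and positions came from RefSeq tables of GRCh38.p14 and from GENCODE 29. Named genes are RNF112, the 10 chemokine genes, the called genes of each list (at most 6), chosen receptors and proteases, and the 5 genes most like CXCL8. CCL5, TNF, RELA, NFKBIA, NFKBIE, NFKB1, DPP4, CXCR4, CCR4, CCR10 and CCRL2 do not fall under this rule. Nor do LYZ, CSF1R, ITGAM, PPARG and the neighbors of the cluster. All of these were picked once their values had been seen. The 10 genes and all lists were chosen with earlier results of these data known. Alternatives were DESeq2 1.42.0, other size factors and filters, a replicate block, limma 3.58.1 on log2(RPKM + 1) or log2(RPKM + 0.1), and each sample left out in turn.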

Additional observations from a re-analysis of the deposited data

How the results depend on the processing

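CCL20, CXCL8, CXCL2, CXCL3, CXCL5 and CXCL6 kept their direction and call in all 14 alternatives. Their log2 fold changes lay between 1.84 and 2.15, 1.32 and 1.54, 0.84 and 1.08, 0.72 and 0.98, 0.56 and 0.75, and -0.91 and -0.60. No alternative reversed any of the 8. Replicate numbers gave no sign of pairing the samples: deviations of same-numbered samples from their group means correlated at -0.105, -0.319 and -0.263, and no vector sample correlated best with its own number. With 3 samples a group these correlations cannot settle whether samples were handled in pairs. With a replicate block in edgeR, CXCL1 (log2 fold change 0.44, adjusted p = 0.1) and CXCL16 (0.61, adjusted p = 0.0767) were no longer called, which left 5 of the 8 genes called higher and 1 lower, and the block changed no other call among the 8. Of the other genes named as called, CHUK, IL17RC, NFKB2, ZFP36, ZFP36L2, ZC3H12A, KRT7, KRT17, KRT18, EPCAM and LOC105377275 were also no longer called with the block. The block left 618 genes of the whole table called higher and 258 lower (6.06% of those tested), and the summed ELR log2 ratio was 1.07 within numbers against 1.08. Leaving out each sample in turn gave CXCL1 between 0.34 and 0.52 and CXCL16 between 0.57 and 0.67, 702 (without vector replicate 1) to 1841 (without vector replicate 2) genes higher and 359 to 1546 lower, from the same 2 samples. Genes called lower numbered 659 with library totals, 669 with limma on log2(RPKM + 1) and 682 with log2(RPKM + 0.1). CCL2 and CX3CL1 gave a value only without the filter on low counts, where neither was called (adjusted p = 0.78 and 0.809 in edgeR's test). Depth limits these 2 genes, and with 3 samples a group no exact test can fall below 0.1.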
